A study of Mus musculus with 6 samples.

Results

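The regions described here are ATAC-seq peaks at the 3′ ends of mouse genes in liver. They are all peaks of the deposited table that its annotation column places in a 3′ UTR or in one of its downstream classes, which reach 3 kb past a gene. The rule left 953 peaks of 22412, of which 455 were 3′ UTR peaks assigned to 446 genes and 498 were downstream peaks assigned to 463 genes. The downstream class split into 164 peaks labelled as under 1 kb, 171 as 1 to 2 kb and 163 as 2 to 3 kb past the gene. No measured value entered the choice. The table lists 0 intergenic peaks, and its peak names run up to number 30387. Comparisons with all peaks below are therefore with the listed peaks only.

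The 3′ UTR is the stretch of an mRNA between the stop codon and the poly(A) tail, and it carries binding sites for microRNAs and for proteins that set the stability and translation of the mRNA. On the DNA, the 3′ end of a gene is where transcription is terminated, and regulatory elements of the same or of a neighbouring gene can lie in or just past it. ATAC-seq uses a transposase that inserts sequencing adapters into open chromatin, so it reports how open the DNA of such a region is and not how much mRNA is made.

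Nuclei came from mouse livers, and the libraries are labelled by the adenovirus used. In 3 control libraries (Ad-EGFP) the virus carried EGFP, a green fluorescent protein, and in 3 libraries (Ad-Dyrk1b) it carried Dyrk1b, a dual-specificity kinase, labelled as overexpressed. All 6 libraries therefore share exposure to an adenovirus, and the labels name no strain, age, dose or time after infection. Nothing in the labels says that the 3 libraries of a group came from different animals, so a p-value here weighs a difference only against the spread between libraries, which may be technical.

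Each library had between 762633 and 1267934 reads in listed peaks, and the third Ad-Dyrk1b library was the deepest. These were 2.22%, 1.89% and 1.97% of the library totals behind the deposited RPKM values in controls and 1.67%, 2.34% and 2.62% with Dyrk1b. Most reads of every library thus lay outside listed peaks. The median 3′ UTR peak held 27, 28 and 23 reads in the control libraries and 26, 30 and 44 in the Ad-Dyrk1b libraries, and the median downstream peak 27, 27 and 22 reads against 25, 29 and 42. The median standard error of the log2 change was 0.33 in both classes. The fit over all peaks gave a coefficient of variation between libraries of a group of 19.9%, which is the part beyond counting noise. Levels below are CPM, that is, reads scaled to the TMM-normalised total of reads in peaks, and levels compared between peaks are divided by peak length (CPM per kb). Start peaks of marker genes here were promoter or 5′ UTR peaks, or any peak of the gene centred within 3 kb of its start. Of 18 hepatocyte marker genes, 5 had one. Their summed level was 263 to 311 CPM in the control libraries and 269 to 284 CPM in the Ad-Dyrk1b libraries. The sum includes the Apoa1 downstream peak, centred 2187 bases from the gene start, with means of 85.3 CPM in controls and 91.8 CPM with Dyrk1b. Alb and Ttr were among the hepatocyte markers without one. None of the listed markers of macrophages, sinusoidal endothelial cells, cholangiocytes, B cells or T and NK cells had a start peak. Some had a listed peak elsewhere: 4 of 9 endothelial, 2 of 9 macrophage, 2 of 6 B cell and 1 of 6 T and NK cell markers. Of the hepatocyte markers, 8 of 18 had a listed peak at any position. A missing start peak therefore does not show that a cell type was absent. Of 8 stellate cell markers, 2 had a start peak, with a summed 31.5 to 48.4 CPM in controls and 48.3 to 58.9 CPM with Dyrk1b, and 1 of 5 neutrophil markers had one, with 14.7 to 33.9 CPM and 22.9 to 37.3 CPM. Whole livers hold several cell types, so fewer cells of a type and less accessibility per cell cannot be told apart, and the part of cell makeup in the values below was not tested.

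Peaks of the 2 classes lay on opposite sides of the annotated gene end, which largely follows from the labels that chose them. Of 454 3′ UTR peaks with a gene record, 453 had their centre inside the gene, at a median of 827 bases before its end (interquartile range 327 to 2056 bases), and 245 lay within 1 kb of it. All 498 downstream peaks were centred past the end, at a median of 1649 bases (905 to 2350 bases). The deposited distance class can rest on another transcript than the deposited gene end: the downstream peak of Apoa1, the main protein of high-density lipoprotein, is labelled 2 to 3 kb and was centred 935 bases past the gene record. Genes of downstream peaks were shorter in these annotations, with a median length of 9866.5 bases against 21022.5 bases for 3′ UTR peaks. The assigned gene had no symbol for 92 of the 498 downstream peaks and for 1 of the 455 3′ UTR peaks. The part of this in the lengths was not tested.

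**Figure D1:**
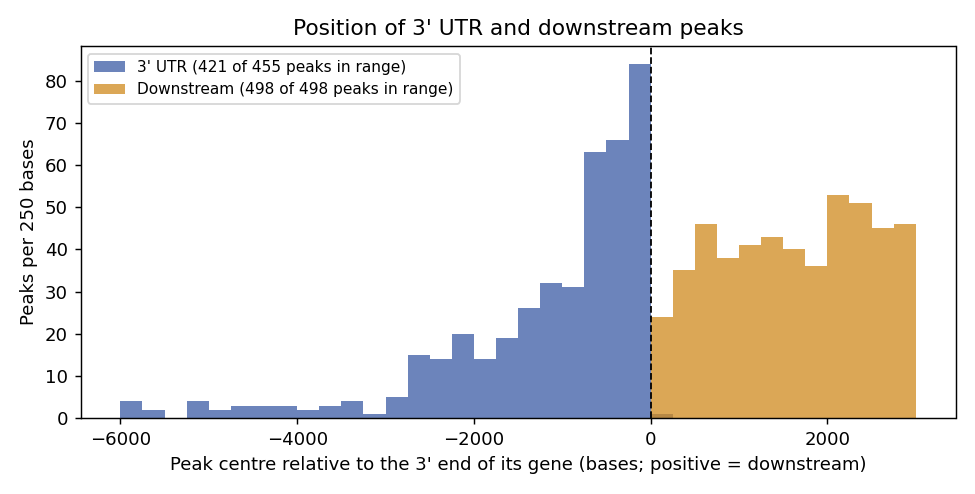
The number of peaks per 250 bases is plotted against the distance from the peak centre to the 3′ end of the assigned gene, with positive values past the end. The 3′ UTR peaks pile up just before the end, with a median of 827 bases before it. The downstream peaks spread over the 3 kb after it, with a median of 1649 bases. The side of the end and the 3 kb limit largely follow from the class labels.

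A peak at a gene end can also be near a gene start. Of the 953 peaks, 117 were centred within 3 kb of the start of their own or of another gene in the table, 61 of them in 3′ UTRs and 56 downstream. For 13 of the 3′ UTR peaks, and for 0 of the downstream peaks, the start of a different gene was within 1 kb. The peak in the 3′ UTR of Mrpl43, a mitochondrial ribosomal protein, was centred 88 bases from the start of Twnk, the mitochondrial DNA helicase, and that in Rfxank, a subunit of the RFX complex at MHC class II promoters, 506 bases from the start of Nr2c2ap. The assigned gene was the one with the nearest start in the table for 94.5% of 3′ UTR peaks and for 64.3% of downstream peaks.

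Median accessibility of the 2 classes differed little. Over all libraries the median 3′ UTR peak had 79.8 CPM per kb and the median downstream peak 76.9, between the intron median of 73.7 and the promoter median of 84.9. Within each library the median log2 level of 3′ UTR peaks exceeded that of downstream peaks by 0.04 ± 0.03 (SD, n = 6 libraries), or 1.03-fold, with 5 of 6 libraries in that direction. The exact sign-flip test over libraries gave a two-sided p of 0.0625 (0.0938 after Benjamini-Hochberg adjustment over 6 class comparisons). Both classes were above intron peaks in 6 of 6 libraries, by 0.10 ± 0.02 for 3′ UTR and 0.06 ± 0.05 for downstream peaks on the log2 scale. Each of these had an exact sign-flip p of 0.031, the smallest that 6 libraries can give, and an adjusted p of 0.0625, so neither passed 0.05 after adjustment. Against all other listed peaks, 3′ UTR peaks differed by 0.03 ± 0.04 on the log2 scale and were higher in 4 of 6 libraries (exact sign-flip p of 0.156, adjusted 0.188). Downstream peaks differed by -0.01 ± 0.05 and were higher in 2 of 6 (exact sign-flip p of 0.5625). Peaks within 3 kb of a gene start had a median of 87.7 CPM per kb and the other peaks of the 2 classes 76.8.

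Downstream peaks at 1 to 2 kb had the highest median level of the 3 distance classes, 79.7 CPM per kb, beside 77.0 under 1 kb and 73.7 at 2 to 3 kb, and lay above the class under 1 kb in 4 of 6 libraries. Level therefore did not fall steadily with distance. Downstream peaks labelled under 1 kb exceeded those at 2 to 3 kb in 6 of 6 libraries, by 0.05 ± 0.03 on the log2 scale (exact sign-flip p of 0.031, adjusted 0.0625). The excess was 0.08 ± 0.03 in the 3 controls and 0.03 ± 0.01 in the 3 Ad-Dyrk1b libraries, and the groups did not overlap. The exact permutation p of that difference was 0.1, the smallest that 3 against 3 can give, and 0.8 after adjustment over 8 group comparisons.

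**Figure D2:**
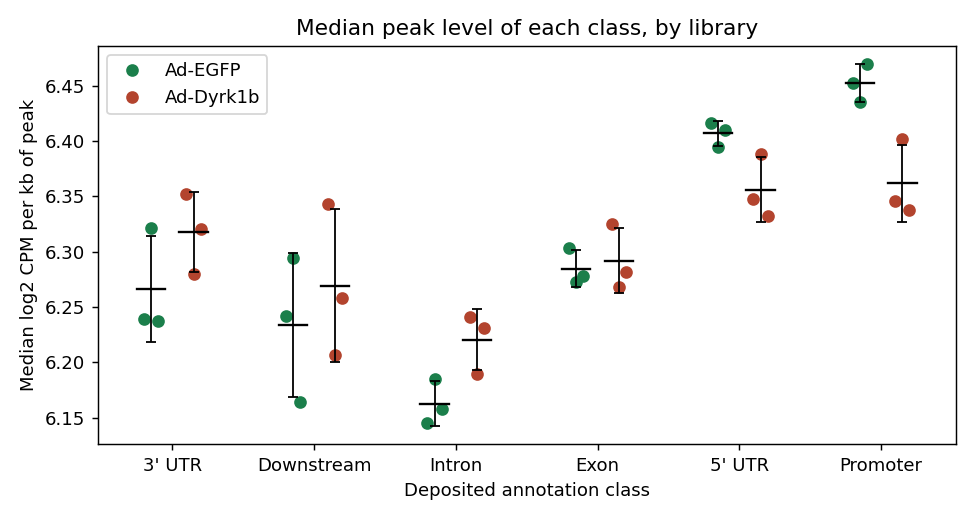
Median log2 CPM per kb of the peaks of each annotation class is plotted for each library, with Ad-EGFP and Ad-Dyrk1b side by side and a bar and whiskers for mean and SD (n = 3); the vertical axis does not start at 0. The 3′ UTR and downstream medians lie between 6.16 and 6.35 in all 6 libraries, and the groups overlap in both classes.

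The highest levels per kb in the 3′ UTR class were at Mroh2a (380 CPM per kb), Frmd8 (169), Tor1b, a torsin ATPase (160), and Bsn, the presynaptic scaffold protein bassoon (145). Mroh2a had 193, 149 and 212 CPM in the control libraries and 169, 126 and 119 CPM with Dyrk1b, and the groups overlapped. In the downstream class the highest were at Zfp36, which codes for the mRNA decay factor tristetraprolin (211 CPM per kb), a gene without a symbol on chr19:6318070-6318468 (149), Apoa1 (143) and Traf4, a signalling adaptor (142). The Zfp36 peak had 72.4, 65.3 and 58.9 CPM in controls and 43.6, 41.7 and 48.9 CPM with Dyrk1b. All 3 of its Ad-Dyrk1b libraries lay below all controls, with a log2 change of -0.54 ± 0.25 (SE) and an edgeR adjusted p of 0.321.

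The design asks what Dyrk1b overexpression does to chromatin, and at gene ends no peak passed the test. In the edgeR quasi-likelihood fit 0 of the 937 gene-end peaks that passed the filter on low counts had a Benjamini-Hochberg adjusted p under 0.05, where 0.0317% of all 22051 tested peaks did (0.00907% higher and 0.0227% lower with Dyrk1b). The lowest adjusted p was 0.0967 among 491 downstream peaks and 0.107 among 446 3′ UTR peaks. limma-trend also called 0, and DESeq2 called 1 lower, Olfr750, with an adjusted p of 0.0494, where it called 0.0803% of all peaks. DESeq2 gave no adjusted p to 791 of the 953 members and to 16946 of all 22412 peaks. Its share is over all of these, unlike the edgeR share, which is over tested peaks. Of the 953 peaks, 16 were removed by the filter, 9 in 3′ UTRs and 7 downstream.

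At an unadjusted edgeR p under 0.05, 63 gene-end peaks were higher and 77 lower with Dyrk1b, or 6.72% and 8.22% of those tested, where the shares over all tested peaks were 6.44% and 7.72%. In the 3′ UTR class 29 were higher and 30 lower (6.50% and 6.73%), and in the downstream class 34 were higher and 47 lower (6.92% and 9.57%). By distance, the downstream counts were 12 higher and 20 lower under 1 kb (7.41% and 12.3%), 8 and 16 at 1 to 2 kb (4.76% and 9.52%), and 14 and 11 at 2 to 3 kb (8.70% and 6.83%), and whether these classes differ was not tested. The balance of higher and lower depended on the scaling: with library size alone 71 were higher and 55 lower (1659 and 1368 of all peaks), and with the library totals behind the RPKM values 71 and 9 (1666 and 250 of all peaks). All 3 Ad-Dyrk1b libraries lay above all 3 controls in 94 gene-end peaks (10.03%, where 9.53% of all tested peaks did) and below them in 87 (9.28%, where 9.97% did). Over both classes these shares were near those of all tested peaks. The farthest from them was the lower share of the downstream peaks under 1 kb, 12.3% where all peaks had 7.72%.

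The centre of the distribution was also close to that of all peaks. The median log2 change was 0.07 in the 3′ UTR class and 0.02 in the downstream class, where the median of all tested peaks was 0.0046, the intron median 0.05 and the promoter median -0.10. A log2 change above 0 was found in 244 of 446 3′ UTR peaks (54.7%) and 253 of 491 downstream peaks (51.5%), where 50.4% of all tested peaks had one. Between the 10th and the 90th percentile the change ran from -0.53 to 0.68 in 3′ UTRs and from -0.60 to 0.72 downstream. Peaks within 3 kb of a gene start had a median of -0.03 (117 peaks) and those farther away 0.05 (820 peaks).

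The 3′ UTR peaks took 1.79%, 1.73% and 1.73% of the reads in peaks in the controls and 1.77%, 1.77% and 1.81% with Dyrk1b, so the groups overlapped (1.75% ± 0.0339 against 1.78% ± 0.0241, SD, n = 3; exact permutation p of 0.3, two-sided). Without the strongest peak of each library the means were 1.81% and 1.86% and the groups did not overlap (exact permutation p of 0.1). Downstream peaks took 1.91%, 1.82% and 1.72% in the controls and 1.81%, 1.79% and 1.86% with Dyrk1b. Their group means were 1.82% ± 0.0935 and 1.82% ± 0.0363 (SD, n = 3; exact permutation p of 1). With 3 libraries a group this test cannot go below 0.1.

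The sign of the log2 change varied with the level of the peak, in gene-end peaks as in all peaks. When all tested peaks were put into 5 bins by mean CPM over the 6 libraries, the median log2 change of all peaks went from 0.35 in the weakest bin to -0.15 in the strongest. The 3′ UTR medians in the same bins were 0.35, 0.21, 0.11, -0.11 and -0.14, and the downstream medians 0.41, 0.10, -0.02, -0.03 and -0.32. In the weakest bin 62 of 94 3′ UTR and 79 of 116 downstream peaks were above 0, and in the strongest bin 23 of 67 and 11 of 59, where the shares of all peaks were 68.5% and 29.3%. Reads in peaks also differed between libraries, with 855787, 840463 and 762633 in controls and 768418, 891204 and 1267934 with Dyrk1b. These ranges overlapped. The part in this trend of depth, or of the share of each library that lay in peaks, was not tested.

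**Figure D3:**
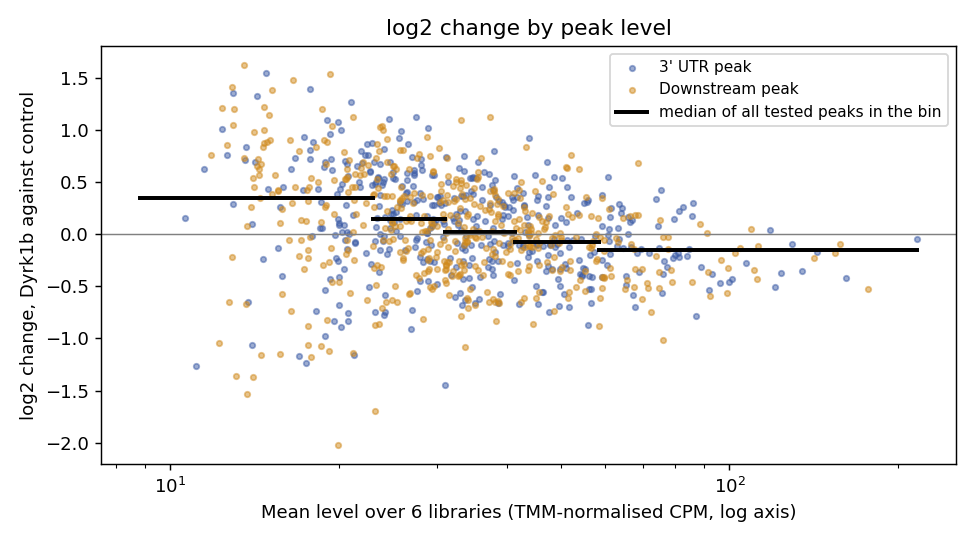
Each point is a tested 3′ UTR or downstream peak, with its mean level over 6 libraries (CPM, log axis) and its log2 change, Dyrk1b against control. The black bars are the medians of all tested peaks in 5 bins of level, which go from 0.35 to -0.15, and points of both classes follow them.

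The peaks named next come from, for each class and direction, the 6 with the lowest unadjusted p among those whose groups do not overlap. The lack of overlap is part of that choice, none passed the adjusted threshold in edgeR as run here, and the values describe these libraries. Among those lower with Dyrk1b, the downstream peak of Psmb3, a β subunit of the proteasome core, on chr11:97605641-97605851, had 36.2, 37.5 and 24.1 CPM in the controls and 3.96, 3.29 and 14.5 CPM with Dyrk1b. Both of the lowest Ad-Dyrk1b values rest on 3 reads. Its log2 change was -2.02 ± 0.49 (SE; edgeR adjusted p of 0.0967), and -3.12 without the third Ad-Dyrk1b library. With loess offsets, which remove a trend with peak strength, its edgeR adjusted p was 0.0331. A second downstream peak of Psmb3, also below all controls in all 3 Ad-Dyrk1b libraries, had a log2 change of -0.42 ± 0.25.

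The downstream peak of Olfr750, an odorant receptor gene, on chr14:51301988-51302768, had 141, 88.3 and 74.99 CPM in the controls and 59.5, 43.9 and 48.9 CPM with Dyrk1b. The group means were 102 ± 35.1 and 50.8 ± 7.93 CPM (SD, n = 3), for a log2 change of -1.01 ± 0.24 (SE; edgeR adjusted p of 0.0967, DESeq2 adjusted p of 0.0494). Odorant receptors are a large family of similar genes, and the sources used here do not tell how reads that map to several places were treated. The same uncertainty holds for the glutathione transferase, cytochrome P450, Nat8 and histone genes below. The 3′ UTR peak of Lars2, the mitochondrial leucyl-tRNA synthetase, on chr9:123290934-123291300, had 81.7, 25.4 and 29.5 CPM in the controls and 15.9, 10.98 and 22.2 CPM with Dyrk1b. The first control stood far above the others, and the log2 change of -1.45 ± 0.38 (edgeR adjusted p of 0.107) was -0.71 without it. The 3′ UTR peak of Stk16, a serine/threonine kinase, on chr1:75191184-75191935, had 134, 103 and 95.1 CPM in the controls and 63.4, 56.0 and 71.9 CPM with Dyrk1b. Its controls were all above its Ad-Dyrk1b libraries, with a log2 change of -0.79 ± 0.22 (edgeR adjusted p of 0.131).

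The other lower peaks in 3′ UTRs were Rfxank (-0.87), Tmem214 (-1.16), Mfsd4b5 (-0.70) and H1f4, a linker histone gene so short that its 3′ UTR peak was centred 963 bases from its own start (-0.75). Downstream they were Ccdc124 (-0.88), Dnah2, an axonemal dynein heavy chain (-0.74), Ppp5c, protein phosphatase 5 (-0.83), and Pcdh1, a protocadherin (-0.60), all as log2 change. The H1f4 peak had 63.1, 56.9 and 58.9 CPM in the controls and 35.7, 37.3 and 33.6 CPM with Dyrk1b, a gap wider than the spread within either group, with an edgeR adjusted p of 0.223. The strongest promoter or 5′ UTR peak of H1f4, centred 931 bases away, had a log2 change of 0.0052.

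Among peaks higher with Dyrk1b, Tram1, which codes for a membrane protein of the protein translocation site in the endoplasmic reticulum, had 2 downstream peaks. The farther one, on chr1:13631606-13632294, had 11.7, 33.9 and 24.1 CPM in the controls and 64.8, 49.4 and 39.8 CPM with Dyrk1b, for a log2 change of 1.12 ± 0.33 (edgeR adjusted p of 0.140). The nearer one had 2.34, 10.9 and 12.05 CPM in the controls and 21.2, 24.2 and 20.6 CPM with Dyrk1b, for a log2 change of 1.39 ± 0.56 (edgeR adjusted p of 0.268). In both, every Ad-Dyrk1b library was above every control, and the first control was the lowest library.

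The downstream peak of Trp53rka, a kinase of the p53-regulating kinase family, on chr2:165329210-165329542, had 11.7, 9.68 and 8.03 CPM in the controls and 27.8, 26.4 and 32.1 CPM with Dyrk1b. Its groups were tight and far apart, with a log2 change of 1.54 ± 0.46 (edgeR adjusted p of 0.156), but its controls hold only 10, 8 and 6 reads. The downstream peak of Nat8f1, an N-acetyltransferase gene of a family of close copies, had 25.7, 14.5 and 22.8 CPM against 48.9, 40.6 and 45.9 CPM, a log2 change of 1.098 ± 0.33 (edgeR adjusted p of 0.156). In 3′ UTRs the higher peaks were Fhip1b (1.13), Fam149b (1.27), Tdrkh, a factor of piRNA maturation (1.01), Slc6a19, a neutral amino acid transporter (1.103), Serinc5 (1.39) and Prep, the prolyl endopeptidase (1.55). Further downstream ones were Gstm1, a glutathione transferase (1.48), and Erg28, named for its role in yeast ergosterol synthesis (0.84). Their edgeR adjusted p lay between 0.189 and 0.235.

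**Figure D4:**
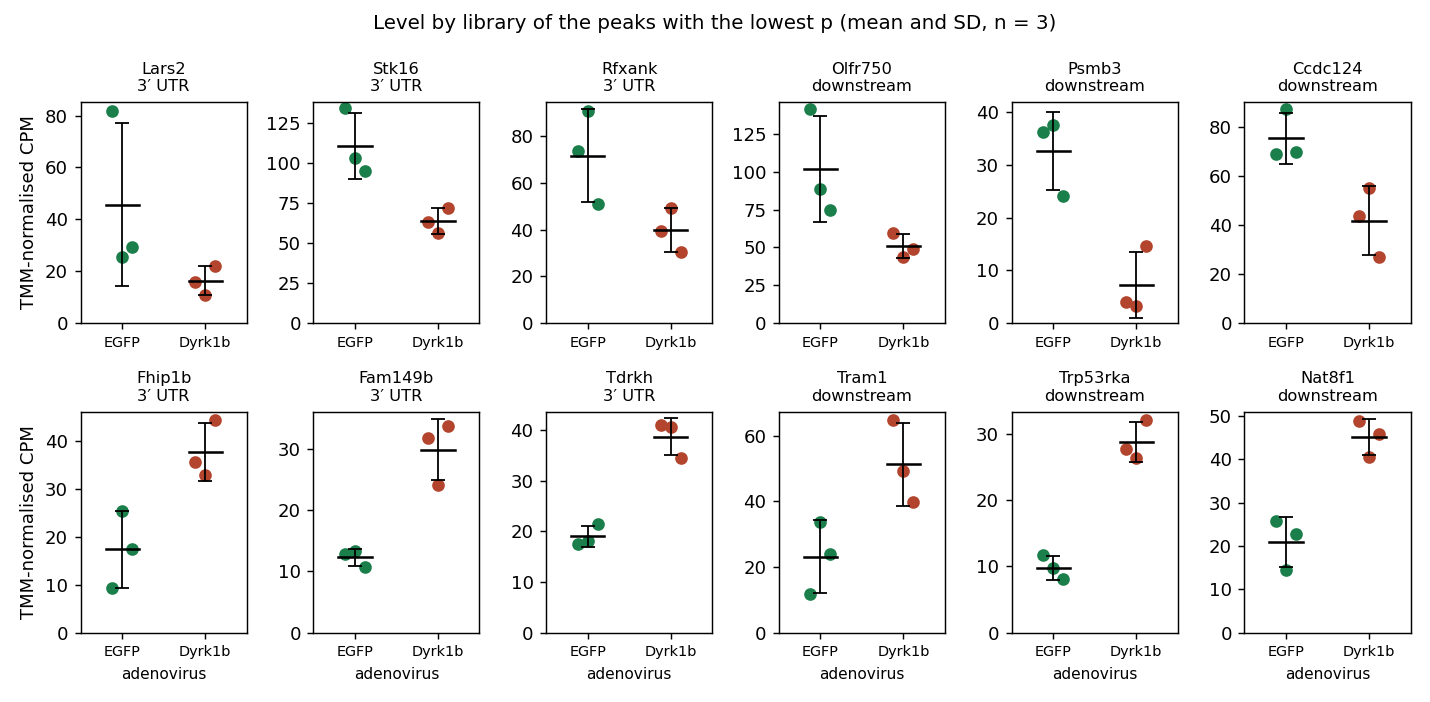
Points give the TMM-normalised CPM of 12 of the lowest-p peaks in each Ad-EGFP and Ad-Dyrk1b library, with mean and SD (n = 3), and each panel starts at 0 with its own scale. Groups do not overlap in any panel, as the choice of peaks required, and the first control of Lars2 (81.7 CPM) stands far above the other controls.

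From a list of gluconeogenesis and glycogen genes, the 3′ UTR peak of Gcgr, the glucagon receptor, on chr11:120429299-120429818, had 93.4, 77.4 and 72.3 CPM in the controls and 46.3, 51.6 and 62.7 CPM with Dyrk1b. Its groups did not overlap, and the log2 change was -0.58 ± 0.24 (edgeR adjusted p of 0.270). The 3′ UTR peak of Ppp1r3b, a glycogen-targeting subunit of protein phosphatase 1, had a log2 change of -0.27 ± 0.36, its groups overlapped, and the value ran from -0.54 to -0.11 with 1 library left out.

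From a list of glycolysis and hexose uptake genes, Slc2a1, the glucose transporter GLUT1, had 26.9, 13.3 and 16.1 CPM in its 3′ UTR peak in the controls and 42.3, 28.6 and 32.9 CPM with Dyrk1b. All its Ad-Dyrk1b libraries were above all its controls, with a log2 change of 0.86 ± 0.37 (edgeR adjusted p of 0.295). In lipid synthesis and storage, Dgat2, which makes triglyceride, had a downstream peak at -0.34, and Plin4, a lipid droplet coat protein, a 3′ UTR peak at -0.33. Of insulin and mTOR signalling genes, Akt1 had a downstream peak at 0.33 and Igf1 a 3′ UTR peak at -0.04. Yap1, the Hippo pathway coactivator, had a downstream peak at 0.37. Of hepatocyte transcription factors, Nfix had a 3′ UTR peak at -0.19 and Foxa3 a downstream peak at 0.00. From Dgat2 to Foxa3 these are log2 changes of peaks whose groups overlapped. With 1 library left out Plin4 ran from -0.51 to -0.23, Akt1 from 0.13 (without the third control) to 0.55 (without the second), and Yap1 from 0.0034 (without the first control) to 0.84 (without the second). No gene-end peak was assigned to Dyrk1b, to Wbp2 or to the listed fatty acid oxidation, clock, microRNA or small nucleolar RNA genes.

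Larger gene families gave both directions. Solute carrier genes, which move small molecules across membranes, had 25 tested peaks, 9 above and 16 below 0, with a median of -0.12. At an unadjusted p under 0.05, 4 were higher (Slc6a19, Slc2a1, Slc29a3 and Slc25a47) and 2 lower (Slc22a8 and Slc37a2), where 6.44% and 7.72% of all tested peaks were, and 0 were called. Slc25a47, Slc22a8 and Slc37a2 are named because of their values. Zinc finger genes of the Zfp series had 12 peaks, 6 above and 6 below 0, with a median of 0.03. Cytochrome P450 genes had 6 tested of 7 peaks, 5 above 0, with a median of 0.48. The highest of them, downstream of Cyp2s1, had 7.01, 10.9 and 1.34 CPM in the controls and 26.4, 18.7 and 16.8 CPM with Dyrk1b. Its log2 change was 1.62 ± 0.61 (edgeR adjusted p of 0.238), with 1 to 9 reads in the controls. Ribosomal protein genes, those of the mitochondrial ribosome included, had 5 peaks, 3 above 0, with a median of 0.30. The histone gene peaks were those of H1f4 and H1f2, at -0.75 and -0.24, the second from -0.52 to -0.04 with 1 library left out. Of 4 odorant receptor peaks, those of Olfr750 were at -1.01 and -0.39, Olfr1280 at -0.74 and Olfr410 at 0.65. Over all tested peaks 50.4% were above 0.

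Genes with more than 1 gene-end peak gave a view of how far neighbours share a direction. Of 60 genes with 2 tested peaks, both log2 changes were above 0 in 14, both below in 27, and they differed in sign in 19. Neighbouring peaks share their libraries and lie in one region, so they are not independent. Beside Tram1, the genes with both peaks above 0 included Gstm1 (1.48 and 0.83) and Pank1, a pantothenate kinase of coenzyme A synthesis (1.0002 and 0.73). Those with both below 0 included Fgb, the fibrinogen β chain (-0.50 and -0.68), and Aldh2, the mitochondrial aldehyde dehydrogenase (-0.67 and -0.56). Pank1, Fgb and Aldh2 are named because of their values.

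The start and the end of a gene could be compared in 291 gene-end peaks, of 271 genes, whose gene also had a tested promoter or 5′ UTR peak. Where a gene had several such start peaks, the one with the highest mean CPM was used. The end peaks were not chosen by level. The median distance between the pair was 23601 bases. The start peak had the higher level per kb in 187 of the pairs (64.3%), with medians of 89.4 against 81.0 CPM per kb. Taking the strongest start peak tilts this comparison toward the start. The part of that choice in the levels, and in the changes given next, was not tested. The median log2 change was 0.05 at the end and -0.09 at the start, and the signs matched in 159 pairs (54.6%). Across the 291 pairs Pearson's r was 0.15 and Spearman's rho 0.15, as a description, since pairs share their libraries. For 3′ UTR peaks 77 of 150 signs matched, and for downstream peaks 82 of 141.

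In 5 of the 291 pairs, picked by their values, both peaks had an unadjusted edgeR p under 0.05. Taken singly, 14.9% of tested gene-end peaks, 13.5% of promoter peaks and 13.0% of 5′ UTR peaks had one. Whether 5 pairs exceed what such shares would give was not tested. At Ccdc124 the end had a log2 change of -0.88 and the start -0.76, at Aldh2 the 3′ UTR -0.67 and the start -0.90, and at Lrp5, a Wnt co-receptor, the downstream peak 0.93 and the start 0.69. At Gstm1 the downstream peaks (1.48 and 0.83) and the start (-0.59) had opposite signs. At Psmb3 the start peak had a log2 change of -0.10, against -2.02 at the end, and at Lars2 0.34 against -1.45.

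**Figure D5:**
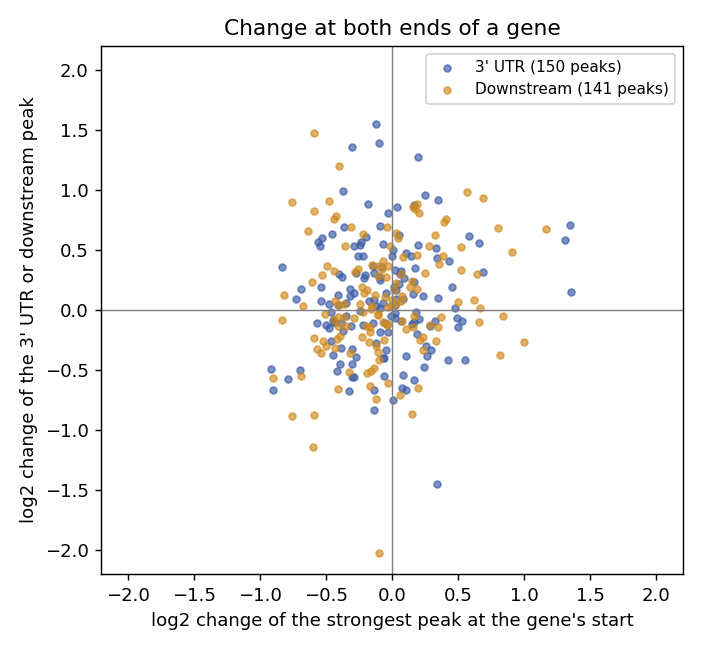
Each point is a gene-end peak whose gene also has a tested start peak (150 in 3′ UTRs, 141 downstream), with the log2 change of the start peak on the horizontal axis and that of the end peak on the vertical axis. The points form a round cloud with r of 0.15, and the Psmb3 peak (-0.10 and -2.02) lies lowest.

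In the authors' deposited table the median log2 ratio was 0.22 for 3′ UTR peaks and 0.19 for downstream peaks, beside 0.17 for all peaks. The authors' deposited table gives a p-value under 0.05 to 88 of the 953 peaks (9.23%, beside 9.37% of all peaks) and an FDR under 0.05 to 0, with a lowest FDR of 0.299.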

How the data were processed

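Per the file headers, the authors deposited 1 table with read counts per merged peak and library, RPKM values made from them, a log2 ratio of mean RPKM, a p-value, an FDR and an annotation. No count is under 1. The submitters' processing notes name Bowtie2, DiffBind, ChIPseeker and mm10. The peak caller, duplicate removal, read shift and the authors' test were not given in these sources. Of 791 member genes matched by symbol to a GRCm38 table, 2.28% had a start within 2 kb of the one listed there (133 kb was the median shift). Coordinates are those of the deposited table, in an unnamed build and with an unstated first base (0 or 1). No sequence is printed.

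The deposited counts went into edgeR 4.0.16, run in R 4.3.3 (TMM, filterByExpr, quasi-likelihood, no covariate) over all 22051 peaks kept of 22412, with Benjamini-Hochberg adjustment and a threshold of 0.05. The code was tested on simulated data. Alternatives were DESeq2 1.42.0, limma-trend 3.58.1 with a prior count of 2, other scalings, no filter, a replicate block and each library left out. An alternative restricted to peaks over 3 kb from gene starts was added after seeing the data. Single values were tested by exact permutation with SciPy 1.17.1. Named peaks were those called, the 6 with the lowest unadjusted p per class and direction whose groups do not overlap (no predicted genes, and 1 peak a gene), the 4 highest per kb in each class, up to 3 with the lowest p from each of 15 gene lists, and any of Dyrk1b or Wbp2. Some peaks that this rule names, and the gene list count that includes one of them, are not reported here. The members and lists were chosen with earlier results of these data known.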

Additional observations from a re-analysis of the deposited data

How the results depend on the processing

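No gene-end peak was called by edgeR as reported, with library size alone, with library totals behind the RPKM values, without the filter, by limma-trend or with any 1 library left out (0 to 0). Loess offsets called 1 (Psmb3, log2 change -2.35, adjusted p of 0.0331) and DESeq2 called 1 (Olfr750, -1.01, adjusted p of 0.0494), with 791 of 953 members given no adjusted p by DESeq2. Same-numbered libraries of the groups did not deviate together (r of -0.0098, -0.0144 and 0.0073), so the numbers were not taken to pair them. With the replicate number as a block 0 were called (lowest adjusted p of 0.103), and the medians were 0.07 and 0.02.

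With library totals behind the RPKM values the median log2 change was 0.23 in 3′ UTRs and 0.19 downstream, where the median of all peaks was 0.17. Leaving out 1 library gave 0.04 to 0.09 and -0.0029 to 0.06. Lower peaks at an unadjusted p under 0.05 numbered 9 in place of 77 with those totals (250 of all peaks in place of 1702) and 48 without the first control (1383 of all), and higher ones 39 in place of 63 with loess offsets (1095 of all in place of 1419). The cause was not tested.

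The difference in downstream share was -0.00197 percentage points over filtered peaks, in place of 0.00085, and -0.0479 to 0.0453 with 1 library left out, negative without the third control or the third Ad-Dyrk1b library (-0.0192). The class difference in level was 0.0548 as a mean over peaks and 0.0468 over filtered peaks, both with an exact sign-flip p of 0.031. Its change with Dyrk1b was -0.0017 (without the first control) to 0.0360 with 1 library left out.

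Of 689 pairs of a named peak and an alternative, 674 kept their direction. The 15 others were in 6 peaks, with these log2 changes in the main fit: Tor1b (-0.28), Nfix (-0.19), Bsn (0.17), Apoa1 (0.10), Igf1 (-0.04) and Foxa3 (0.0048). With library totals Nfix was at 0.0197 and Igf1 at 0.161, with loess offsets Igf1 at 0.0270, by limma-trend Foxa3 at -0.0452 and with the block Foxa3 at -0.0255. Leaving out 1 library, Tor1b ran from -0.663 to 0.0357, Nfix from -0.384 to 0.0430, Bsn from -0.0990 to 0.531, Apoa1 from -0.0497 to 0.196, Igf1 from -0.214 to 0.225 and Foxa3 from -0.193 to 0.226. With 22 to 44 reads in the median peak of a library and a median standard error of 0.33, small changes were not detectable. Leaving out 1 library turned the value or moved it over 1.5 times in 20 of the 53 named peaks.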
